A study of Arabidopsis thaliana with 4 samples.

Results

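The calcium sensor genes of the Arabidopsis thaliana root were followed through aluminium (Al) stress in the wild type and in a mutant of the transcriptional co-repressor LEUNIG_HOMOLOG (LUH). They were chosen by the protein description deposited with each transcript: a locus was taken where the description of its first listed transcript named calmodulin, a calcium-binding protein or calcineurin B-like, and did not name a kinase, an interacting protein or, in that hyphenated form, calmodulin-binding. This gave 63 of 21531 loci. Of these, 6 are calmodulins, 40 are calmodulin-like proteins (CMLs) and 8 are calcineurin B-like proteins (CBLs), and all 54 carry the annotation of metal ion binding, which 1.81% of all loci carry. The description of the remaining 9 does not name a sensor: 5 are described as binding calmodulin or as like such a protein, 2 as like a vacuolar calcium-binding protein, and 2 are other proteins. Those 9 were kept, since the rule selects them, and are described separately.

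Roots came from seedlings of wild-type ecotype Columbia (Col) and of the mutant line luh-4, with about 500 seedlings 6 d old per treatment. They were grown at pH 5.5 and then placed at pH 4.2 in nutrient solution holding 0 or 25 µM AlCl3. Each of the 4 groups had 1 library, and they are called Col control and Col Al for the wild type and luh-4 control and luh-4 Al for the mutant. The treatment text has all roots collected after 4 h, but the controls are labelled 0 h, so exposure to Al and time in the solution cannot be told apart if that label holds. As a check of the mutant, LUH itself had 75 and 63 reads without and with Al in the wild type, and 0 in either library of the mutant.

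Calcium ions rise in the plant cell cytosol within moments of touch, wounding, salt or microbial signals, and sensor proteins with EF-hand domains bind them and relay the signal. Calmodulins are small, very similar proteins that switch many enzymes and transcription factors, CMLs are a plant-specific expansion of that family, and CBLs act by recruiting CBL-interacting protein kinases (CIPKs) to a membrane. In roots these routes are known for control of potassium and sodium transport, root hair growth and defence, and Al is known to disturb calcium fluxes at the root tip.

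The CML47, CML37 and CML45 genes had the furthest rises with Al in Col, and CML24 (also called TCH2) is a touch-induced gene whose closest relative is CML23. The 250 bases before the annotated start of each gene are shown because they differ in 1 short motif, CGCG. It is the core of the site bound by the CAMTA family of calmodulin-binding transcription factors. These genes were picked for display and do not stand for the whole set. Sequences are from RefSeq, build TAIR10.1, read 5′ to 3′ on the gene's strand, with each CGCG in capitals. The windows are chr3:17497165-17497414 (minus strand) for CML47, chr5:16943821-16944070 (minus strand) for CML37, chr5:15882929-15883178 (plus strand) for CML45, chr5:14999620-14999869 (minus strand) for CML24 and chr1:24771394-24771643 (minus strand) for CML23.

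CML47: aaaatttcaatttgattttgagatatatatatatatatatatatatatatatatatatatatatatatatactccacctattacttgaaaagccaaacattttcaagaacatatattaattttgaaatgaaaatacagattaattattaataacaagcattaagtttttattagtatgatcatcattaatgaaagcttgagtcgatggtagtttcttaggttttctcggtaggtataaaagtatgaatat

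CML37: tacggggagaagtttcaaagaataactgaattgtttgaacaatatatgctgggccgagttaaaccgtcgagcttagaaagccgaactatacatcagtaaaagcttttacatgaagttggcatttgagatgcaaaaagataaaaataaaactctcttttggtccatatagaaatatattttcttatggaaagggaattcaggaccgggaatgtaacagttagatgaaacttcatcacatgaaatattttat

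CML45: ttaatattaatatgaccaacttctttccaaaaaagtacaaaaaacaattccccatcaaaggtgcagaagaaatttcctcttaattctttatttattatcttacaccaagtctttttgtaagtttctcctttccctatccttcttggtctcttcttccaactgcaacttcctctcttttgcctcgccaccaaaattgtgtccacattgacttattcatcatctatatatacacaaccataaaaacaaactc

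CML24: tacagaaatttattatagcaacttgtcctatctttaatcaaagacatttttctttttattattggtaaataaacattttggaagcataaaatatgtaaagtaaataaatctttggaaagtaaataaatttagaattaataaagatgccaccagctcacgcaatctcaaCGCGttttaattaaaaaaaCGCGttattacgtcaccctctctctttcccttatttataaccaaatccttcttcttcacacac

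CML23: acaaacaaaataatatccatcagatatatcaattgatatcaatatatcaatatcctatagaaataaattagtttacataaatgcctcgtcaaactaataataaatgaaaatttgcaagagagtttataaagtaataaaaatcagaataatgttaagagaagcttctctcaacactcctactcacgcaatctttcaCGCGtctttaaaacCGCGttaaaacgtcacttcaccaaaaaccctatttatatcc

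CGCG, which reads the same on both strands, stood in this window in 10 of the 63 genes (15.9%) and in 10.1% of 27443 protein-coding genes. It was in 0 windows of the 6 genes that rose with Al by at least 2-fold in a genotype and in 0 of the 5 that fell by as much. Sets of 6 and 5 genes are too small to set apart from the 10.1% of all genes. CML9, 1 of the 8 genes higher with Al in the additive fit below, had 1 CGCG, and the windows of the others had none. The longer form CGCGTT, known as the rapid stress response element and searched on both strands, was in the windows of CML23, CML24 and CBL9 and of 2.59% of all genes. The W-box core TTGAC, bound by WRKY factors and searched on both strands, was in 31 of 63 windows (49.2%) against 44.9% of all genes, and in 3 of the 6 genes that rose. These matches describe the letters in the window and are not evidence of binding.

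Levels are given in RPKM, read counts scaled by coding length and by the library's total, and differences as log2 ratios of RPKM with 0.1 added, which understates changes of low genes. Parentheses hold 95% intervals for counting error alone. A gene is called measured if either library compared reached 1 RPKM. Such a gene is said to have risen or fallen with Al, or to be higher or lower in a genotype, if its ratio was at least 1 or at most -1 and the interval did not contain 0, a criterion called the size rule. With 1 library a group these are differences between libraries with no replicate check. In whole roots, fewer cells of a type and less RNA per cell cannot be told apart.

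Of the 63 genes, 58 reached an RPKM of 1 in at least 1 library, and CML2, CML15, CML28, CML44 and CBL10 did not. The median of the mean RPKM was 11.3 for the 63 genes and 8.81 for all loci. The 8 genes of highest mean level were CML13 (473 RPKM), CAM1 (379), the vacuolar calcium-binding-like AT1G62480 (344), CML35 (276), CAM3 (269), CAM6 (189), CML50 (155) and CAM4 (140). Summed over the 63 genes, RPKM came to 3401 in Col control, 3458 in Col Al, 3206 in luh-4 control and 3230 in luh-4 Al. Calmodulins made up between 31.2% and 32.9% of that sum in each library.

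The 6 calmodulin genes measured here did not pass the size rule in any comparison. CAM1 had 362 RPKM in Col control, 420 in Col Al, 347 in luh-4 control and 389 in luh-4 Al. CAM3 had 296, 256, 283 and 242 RPKM in the same order. CAM1 was thus the higher and CAM3 the lower in both Al libraries, with Al ratios of 0.21 (0.13 to 0.30) and -0.21 (-0.31 to -0.11) in the wild type and of 0.17 (0.08 to 0.25) and -0.23 (-0.33 to -0.13) in luh-4. In an additive fit over the 4 libraries neither reached the threshold (edgeR quasi-likelihood test, Benjamini-Hochberg adjusted p = 0.115 for CAM1 and 0.0745 for CAM3). CAM6 lay between 174 and 196 RPKM, CAM4 between 129 and 153, CAM2 between 52.9 and 61.2 and CAM5 between 19.9 and 22.3. The Al ratios of all 6 lay between -0.23 and 0.25 in the 2 genotypes. Their coding sequences are 70.0% to 91.3% identical to one another, so reads may be shared between copies, and single calmodulin genes are less certain than their sum. That sum was 1061 RPKM in Col control, 1095 in Col Al, 1007 in luh-4 control and 1063 in luh-4 Al. CAM7, whose deposited description names no calmodulin and which is therefore not among the 63, had between 483 and 532 RPKM.

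**Figure D1:**
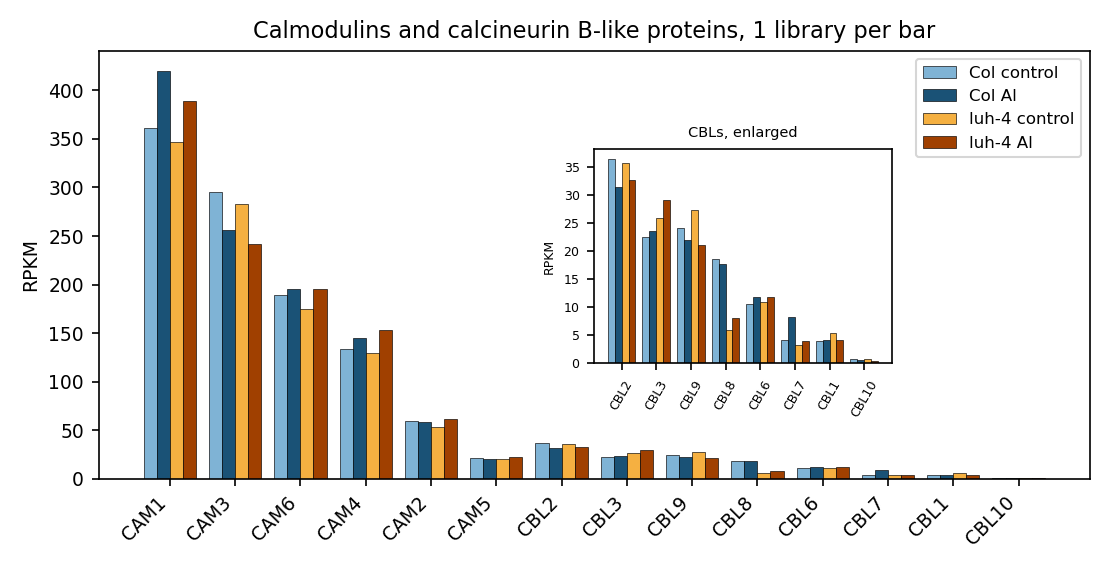
Level in RPKM (vertical axis, linear) of the 6 calmodulin genes and 8 CBL genes, with 1 bar per library coloured by group and no error bars because each group has 1 library; the inset redraws the CBLs on their own scale. CAM1 stands between 347 and 420 RPKM in the 4 libraries, and CBL8 is lower in both luh-4 libraries (5.87 and 8.07) than in both Col libraries (18.6 and 17.7).

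In Col with Al against Col control, 5 of 55 measured genes rose and 4 fell, where 2.6% of 17068 measured loci rose and 2.91% fell. The median ratio of the measured genes was 0.13, and that of all loci 0.02. In luh-4, 4 of 57 rose and 2 fell, where 2.02% of 17117 measured loci rose and 3.1% fell, and the medians were 0.07 and -0.02. CML47, CML37 and CML45 rose in both genotypes, and CML3 fell in both. Of 54 genes measured in both, 40 had the same sign in both responses (74.1%), against 65.6% of 16750 loci.

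CML47 (AT3G47480), known to restrain salicylate-linked immunity, was almost silent without Al. It had 2 reads in Col control and 72 with Al, and 2 in luh-4 control and 68 with Al, or 0.26, 9.44, 0.26 and 9.16 RPKM. The Al libraries were high and the controls low in both genotypes, with no overlap. Its Al ratio was 4.71 (3.25 to 8.23) in Col, with 4.67 (3.21 to 8.19) in luh-4, and the difference between the responses was -0.04.

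CML37 (AT5G42380) is known as a positive regulator of jasmonate-dependent defence against herbivores and is induced by wounding. It had 6 reads in Col control and 127 with Al, and 36 in luh-4 control and 82 with Al, or 0.79, 16.5, 4.70 and 10.9 RPKM. The Al libraries again lay above both controls, but the luh-4 control stood above the Col control. The Al ratio was 4.23 (3.23 to 5.86) in Col, with 1.20 (0.64 to 1.83) in luh-4, a difference of -3.03 (-4.34 to -1.81).

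CML45 (AT5G39670) and AT3G29000 encode a related pair of calmodulin-like proteins whose coding sequences are 66.7% identical. CML45 had 28 reads in Col control and 175 with Al, and 49 in luh-4 control and 129 with Al, and its ratio was 2.60 (2.05 to 3.26) in Col, with 1.41 (0.94 to 1.93) in luh-4. AT3G29000 had 36, 89, 75 and 77 reads in the same order. It rose in Col by 1.27 (0.72 to 1.89), and in luh-4 its ratio was 0.07. Set against Col control instead, the luh-4 Al level of AT3G29000 gave a ratio of 1.11, which passed. Of the 4 libraries, Col control was the low one for AT3G29000, and the other 3 held similar counts. CML47 has AT3G29000 as its closest relative among the 63 genes, at 54.9% identity.

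CML11 (AT3G22930) and CML8 (AT4G14640) are another close pair, 75.3% identical, and are among the CMLs most like calmodulin itself. CML8 is known for a part in salicylate-linked defence. CML11 had 108 reads in Col control and 193 with Al, and 85 in luh-4 control and 206 with Al. It rose in luh-4 by 1.30 (0.94 to 1.69), and its ratio in Col was 0.82, short of the size rule. With the wild-type control as its baseline, the luh-4 Al level of CML11 gave a ratio of 0.95 and did not pass. CML8 had 47, 32, 39 and 17 reads in the same order, and it fell in luh-4 by a log2 ratio of -1.14 (-2.08 to -0.31), with -0.56 in Col. The Al libraries were the high ones for CML11 and the low ones for CML8.

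**Figure D2:**
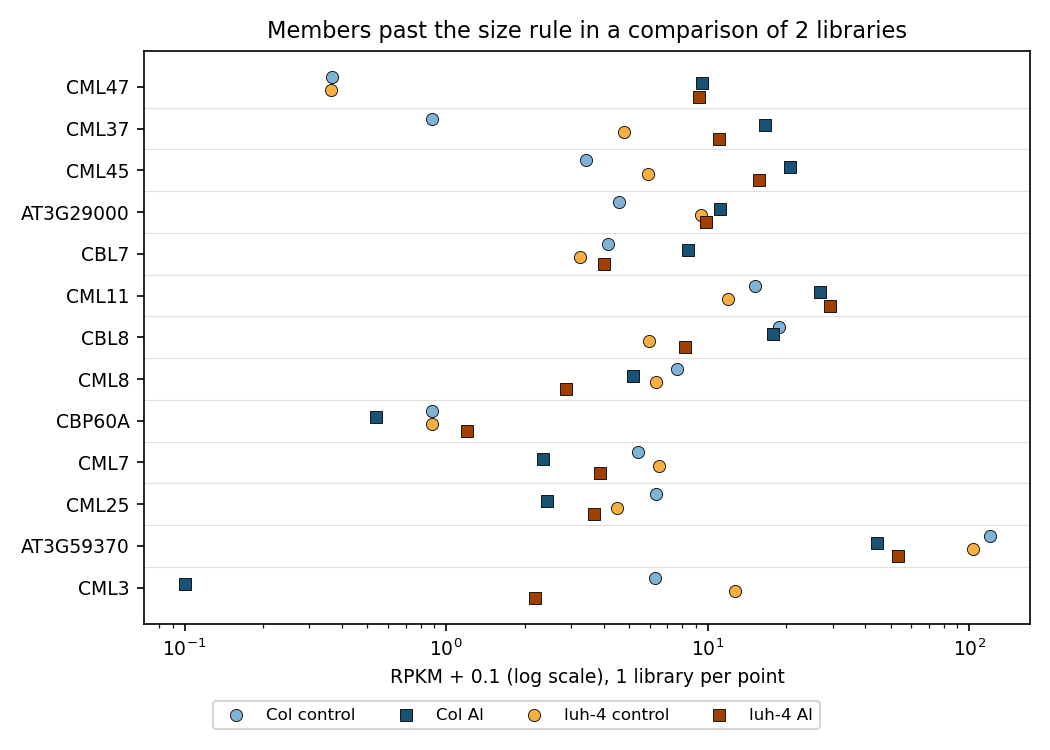
Level of the 13 genes past the size rule in a comparison of 2 libraries, as RPKM + 0.1 on a log axis, with 1 point per library and no error bars because each group has 1 library (circles are controls, squares Al, blue Col and orange luh-4). For CML47 the 2 controls lie at 0.26 RPKM and the 2 Al libraries at 9.44 and 9.16, and for CML3 the Col Al library has 0 reads.

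CML3 (AT3G07490) is known to promote the dimer form of the peroxisomal protease DEG15. It had 39 reads in Col control and 0 with Al, and 80 in luh-4 control and 13 with Al. The Al libraries were the low ones in both genotypes. A count of 0 could stand for up to 3 reads, and on that footing it was at least 13.1-fold lower with Al in Col, where the 39 reads are taken as they stand. The upper end of the interval of its log2 ratio, which covers their counting error too, was -3.35. In luh-4 its ratio was -2.54 (-3.56 to -1.74).

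CML7 (AT1G05990), whose coding sequence is the closest to that of CML3 at 73.8% identity, is also known as a root-hair-specific gene. It had 33 reads in Col control and 14 with Al, and 40 in luh-4 control and 23 with Al, and its ratios were -1.21 (-2.27 to -0.31) in Col and -0.75 in luh-4. With a pseudocount of 1 RPKM the CML7 ratio in Col was -0.97 and no longer passed. CML25 (AT1G24620), known for roles in pollen tubes and root hairs, had 48, 18, 34 and 27 reads in the same order. It fell in Col by a log2 ratio of -1.39 (-2.30 to -0.62), and its ratio in luh-4 was -0.29. Col Al was the lowest library for both. Beside these genes, the 8 root hair marker genes summed to 578 RPKM in Col control, 258 in Col Al, 725 in luh-4 control and 553 in luh-4 Al. Of the 8, 4 fell with Al in Col, where 2.91% of measured loci fell, and 0 in luh-4, where 3.1% fell. None of the 8 was at 0 reads, and the part of root hairs in the CML7 and CML25 values was not tested.

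The remaining CMLs moved less. In Col, 27 of 34 measured CMLs did not pass the size rule, with ratios from -0.56 to 0.95, and in luh-4 30 of 36 did not, with ratios from -1.39 to 0.92. Where such a ratio lay below -1, its interval included 0.

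The vacuolar calcium-binding-like genes are not EF-hand sensors by description, and they were among the most abundant of the 63. AT3G59370 had 119 RPKM in Col control, 44.2 in Col Al, 104 in luh-4 control and 53.4 in luh-4 Al. It fell in Col by a log2 ratio of -1.43 (-1.69 to -1.18), and its ratio in luh-4 was -0.95. AT1G62480 had 472, 277, 366 and 260 RPKM, with ratios of -0.77 in Col and -0.49 in luh-4. The controls of both genes lay above the Al libraries, whereas the summed RPKM of the 40 CML genes was 1552, 1830, 1530 and 1658 in the same order. The loci described as binding calmodulin did not pass the size rule with Al in either genotype, and their sum was 39.1 RPKM in Col control, 49.1 in Col Al, 46.7 in luh-4 control and 48.1 in luh-4 Al. Most of it came from CAMBP25, at 31.1 to 39.2 RPKM, while SARD1, a transcription factor of salicylate synthesis, had 22, 42, 24 and 30 reads. AT1G02270 and AT1G73440, the 2 other proteins, lay between 25.6 and 31.9 and between 10.9 and 11.5 RPKM and did not pass in any comparison. CAMBP25, SARD1 and these 2 were named after their values were seen.

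An additive fit of genotype and treatment to the reads of all 4 libraries used the genotypes as replicates of the Al effect. Its spread is the departure from additive effects, with 1 residual degree of freedom, and not the variation between plants. Of 55 of the 63 genes that entered it, 8 were higher and 4 lower with Al at an adjusted p under 0.05, where 5.6% of 17289 loci were higher and 6.69% lower (edgeR quasi-likelihood test, Benjamini-Hochberg adjustment over all loci). The furthest higher were CML47 at a log2 change of 5.05 (adjusted p = 1.8e-05), CML37 at 2.35 (0.00493), CML45 at 1.98 (0.000326) and CML11 at 1.05 (0.00162). The lower were CML3 at -3.25 (adjusted p = 0.00141), AT3G59370 at -1.20 (9.83e-05), AT1G62480 at -0.64 (0.000242) and CML18, known to bind the vacuolar sodium-proton exchanger NHX1, at -0.46 (0.0159). DESeq2 with the same design called 4 of the 63 genes higher, CML11, CML35, CML45 and CML47, and 2 lower, AT1G62480 and AT3G59370. The share of all 21531 loci that DESeq2 called was not computed, so these counts have no background to set them against.

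The other 4 of the 8 changed by less than the size rule asks. CML36, known to activate the plasma membrane calcium pump ACA8, rose by 0.60 (edgeR adjusted p = 0.0125), the centrin CML19, whose reads covered at most 48.6% of its coding sequence, by 0.59 (0.0472), CML9, known for a part in abscisate and salt responses, by 0.50 (0.00322) and CML35 by 0.42 (0.00422). CML9 had 568 reads in Col control and 887 with Al, and 607 in luh-4 control and 775 with Al, and CML36 had 157, 249, 168 and 242. With DESeq2 size factors in the edgeR fit, CML19 was no longer called and the other 7 were. In both CML9 and CML36 each Al library held more reads than either control. CML9, CML18, CML19 and CML36 fall outside the rule for named genes and were chosen after their values were seen. The touch gene CML24 had 393, 468, 479 and 424 reads and CML23 had 38, 35, 45 and 57, with Al ratios of 0.24 and -0.13 in Col and -0.15 and 0.37 in luh-4. CML41, known for callose deposition at plasmodesmata, had 27, 33, 21 and 30 reads, and neither of its Al ratios had an interval that excluded 0.

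**Figure D3:**
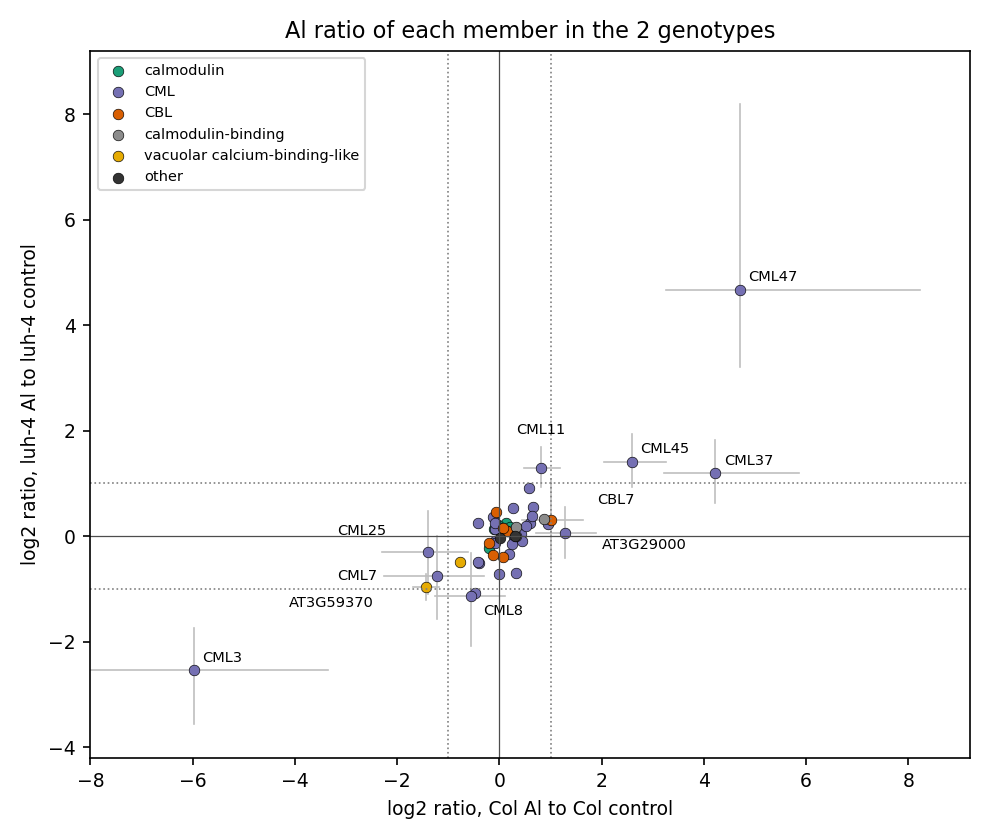
Log2 ratio of Al to control in Col (horizontal axis) and in luh-4 (vertical axis) for the 54 genes measured in both, coloured by class, with grey 95% counting intervals and names for genes past the size rule in either genotype; dotted lines mark ratios of 1 and -1. CML47 lies at 4.71 and 4.67, CML37 at 4.23 and 1.20, and the position of CML3 on the horizontal axis depends on the 0.1 RPKM added, its interval running past the left edge.

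Of the 8 CBL genes, which link calcium to CIPK kinases, 7 were measured. Among them CBL7 rose with Al in Col, where 2.6% of measured loci rose. None passed the size rule with Al in luh-4, where 2.02% of measured loci rose and 3.1% fell. CBL7, also called SCaBP3 and known as a negative regulator of the plasma membrane proton pump, had 36 reads in Col control and 74 with Al, and 28 in luh-4 control and 34 with Al. Col Al was the high library, and the ratio was 1.01 (0.43 to 1.64) in Col and 0.30 in luh-4, and the interval of the difference, -0.71 (-1.63 to 0.21), included 0. The ratio in Col was 0.99 under TMM or DESeq2 scaling or after centring on the median locus, just under the size rule. CBL2 and CBL3, the vacuolar-membrane pair, ranged from 31.5 to 36.5 and from 22.5 to 29.1 RPKM. CBL9 and CBL1, the pair that activates the potassium channel AKT1 through CIPK23, ranged from 21.2 to 27.3 and from 3.98 to 5.33 RPKM. CBL6 lay between 10.6 and 11.8 RPKM. CBL10, known for salt tolerance, stayed under 1 RPKM, with reads on at most 21.5% of its coding sequence. Reads of CBL1 and CBL3 covered at most 59.2% and 60.2%, so the levels of these genes are less certain.

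The comparison of luh-4 with Col asks what the mutant changes in each treatment. Without Al, 3 of 56 measured genes were higher in luh-4 and 1 lower, where 1.55% of 17070 measured loci were higher and 0.855% lower. With Al, 2 of 56 were higher and 2 lower, where 1.22% of 17011 were higher and 0.946% lower. Each of these comparisons shares libraries with the Al responses above, so their values are set side by side and are not independent of them.

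CBL8, known to act with the SOS kinase pathway under high salt, was lower in luh-4 in both treatments. It had 164 reads in Col control and 158 with Al, and 52 in luh-4 control and 70 with Al, or 18.6, 17.7, 5.87 and 8.07 RPKM. The 2 luh-4 libraries lay below the 2 Col libraries with no overlap, and reads covered at least 93.2% of the coding sequence in each library. The ratio of luh-4 to Col was -1.64 (-2.14 to -1.20) without Al and -1.13 (-1.56 to -0.72) with Al. Its Al ratios were -0.07 in Col and 0.45 (-0.08 to 1.01) in luh-4. In the additive fit it was the 1 gene of the 55 with a genotype effect, at a log2 change of -1.39 (edgeR adjusted p = 0.0119), where 0.353% of 17289 loci were higher in luh-4 and 0.602% lower. DESeq2 called 0 of the 63 genes for genotype, and edgeR gave 5 of the 55 at an unadjusted p under 0.05. The share of all loci was not computed for either count, so neither is a result about these genes.

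CML37, AT3G29000 and CML3 were the genes higher in luh-4 without Al, by 2.44 (1.32 to 4.12), 1.04 (0.46 to 1.67) and 1.02 (0.46 to 1.62). CML37 had 0.79 and 4.70 RPKM in these controls, and at an RPKM minimum of 5 it was no longer counted. With Al, the ratios of CML37 and AT3G29000 were -0.59 and -0.17. The CML3 ratio without Al fell just short of the size rule under TMM scaling or after centring on the median locus. CML3 was at least 4.45-fold higher in luh-4 Al than in Col Al, on 13 reads against 0, where the 13 reads are taken as they stand. The lower end of the interval of that ratio, which covers their counting error too, was 1.65 on the log2 scale. CBL7 was lower in luh-4 with Al by a ratio of -1.06 (-1.71 to -0.48). CBP60A (AT5G62570), a calmodulin-binding protein that restrains salicylate-linked immunity, was higher with Al by 1.16 (0.15 to 2.63). Its 16, 9, 16 and 22 reads are under the level set for named genes and covered at most 18.5% of its coding sequence, and it was chosen after its values were seen.

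The Al response of luh-4 minus that of Col passed the size rule upward in 1 of 58 measured genes and downward in 4, where 1.35% of 17435 loci passed upward and 2.26% downward. The 4 were CML37 at -3.03, AT3G29000 at -1.21 (-1.93 to -0.49), CML45 at -1.18 (-1.93 to -0.45) and CML39, a relative of CML37, at -1.02 (-1.83 to -0.22). The 1 upward was CML25 at 1.10 (0.05 to 2.16). CML39 had 41 reads in Col control and 52 with Al, and 70 in luh-4 control and 42 with Al. The CML39 difference was -0.98 under TMM or DESeq2 scaling and so just short of the rule. For all 4 downward genes the luh-4 control lay above the Col control and luh-4 Al lay below Col Al.

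The luh-4 control library differed from the Col control in other gene lists as well, and those values stand beside the CML37, CML39, CML45 and AT3G29000 results. The 22 green shoot genes summed to 205 RPKM in Col control, 159 in Col Al, 529 in luh-4 control and 171 in luh-4 Al. Of 20 measured, 12 were higher in luh-4 control than in Col control, where 1.55% of measured loci were higher. With Al, 2 of 19 measured fell in Col and 15 of 20 in luh-4, where 2.91% and 3.1% of measured loci fell. LHCA3 had 0 reads in Col control, and the other 21 had reads in all 4 libraries. The 5 listed touch and wound genes summed to 92.6, 351, 137 and 364 RPKM in the same order, and 3 of them were higher in luh-4 control than in Col control. The wound and defence regulator WRKY40 had 67 reads in Col control and 141 with Al, and 341 in luh-4 control and 88 with Al. The jasmonate repressor JAZ10 had 5, 28, 27 and 14 reads, and the jasmonate synthesis gene LOX3 had 9, 4, 65 and 6. These 3 had fewer reads in luh-4 Al than in luh-4 control. Of the 5 listed genes, 2 others rose with Al in luh-4 and 2 fell, where 2.02% of measured loci rose and 3.1% fell. In Col, all 4 that were measured rose with Al and 0 fell, where 2.6% of measured loci rose and 2.91% fell. The part of shoot tissue or of handling in the CML values was not tested. Root identity markers were present in each library: the endodermis list summed to between 665 and 803 RPKM and the root meristem list to between 67.6 and 70.4.

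Other genes of calcium signalling were counted by the same size rule, and their counts stand beside the shares of all measured loci: with Al, 2.6% rose and 2.91% fell in Col, and 2.02% rose and 3.1% fell in luh-4. Among the CIPKs, the kinases that CBLs recruit, 1 of 22 measured rose with Al in Col and 0 of 22 in luh-4. CIPK17 had 69, 177, 110 and 162 reads, with a Col ratio of 1.32 (0.94 to 1.77). Of the calcium-dependent kinases (CPKs), which carry their own sensor domain, 0 of 23 measured passed in Col, and 0 of 24 rose and 1 fell in luh-4. The medians of both kinase lists lay between -0.10 and 0.14 in the Al responses.

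On the entry side, 3 of 10 measured cyclic nucleotide-gated channels (CNGCs) rose in Col and 0 of 9 in luh-4. CNGC19, a calcium channel known for wound signalling in herbivore defence, had 17 reads in Col control and 160 with Al, and 63 in luh-4 control and 79 with Al. Its ratio was 3.01 (2.5 to 4.04) in Col, its level was higher in luh-4 control than in Col control by 1.72 (1.09 to 2.75), and the difference between its Al responses was -2.67 (-3.69 to -1.97). Its 4 libraries stood in the same order as those of CML37. CNGC13 rose in Col by 1.05 (0.70 to 1.46). Of the glutamate receptor-like channels (GLRs), 3 of 15 measured rose and 1 fell in Col, and 3 of 16 rose and 1 fell in luh-4. GLR2.5 rose in both, by 1.19 (0.83 to 1.63) and 1.29 (0.88 to 1.82), and GLR2.2 was lower in luh-4 without Al, at -1.07 (-1.44 to -0.76).

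On the export side, 1 of 12 measured calcium pumps rose in each genotype. It was ACA13, an autoinhibited calcium pump, which had 16 reads in Col control and 361 with Al, and 24 in luh-4 control and 320 with Al. Its ratio was 4.16 (3.76 to 5.31) in Col, with 3.55 (3.17 to 4.43) in luh-4, and its Al libraries stood far above its controls, as those of CML47 did. Of the cation exchangers (CAX), 0 of 7 passed in Col and CAX7 rose in luh-4 by 1.21 (0.86 to 1.61). Of 6 measured annexins, calcium-dependent membrane-binding proteins, 1 fell in Col and 2 in luh-4. ANNAT4 had 35, 10, 117 and 13 reads, with ratios of -1.69 (-3.0 to -0.78) and -3.02 (-4.09 to -2.31), and ANNAT3 had -1.46 (-2.11 to -0.91) in luh-4. ANNAT4 too was higher in luh-4 control than in Col control, by 1.70 (1.18 to 2.33).

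**Figure D4:**
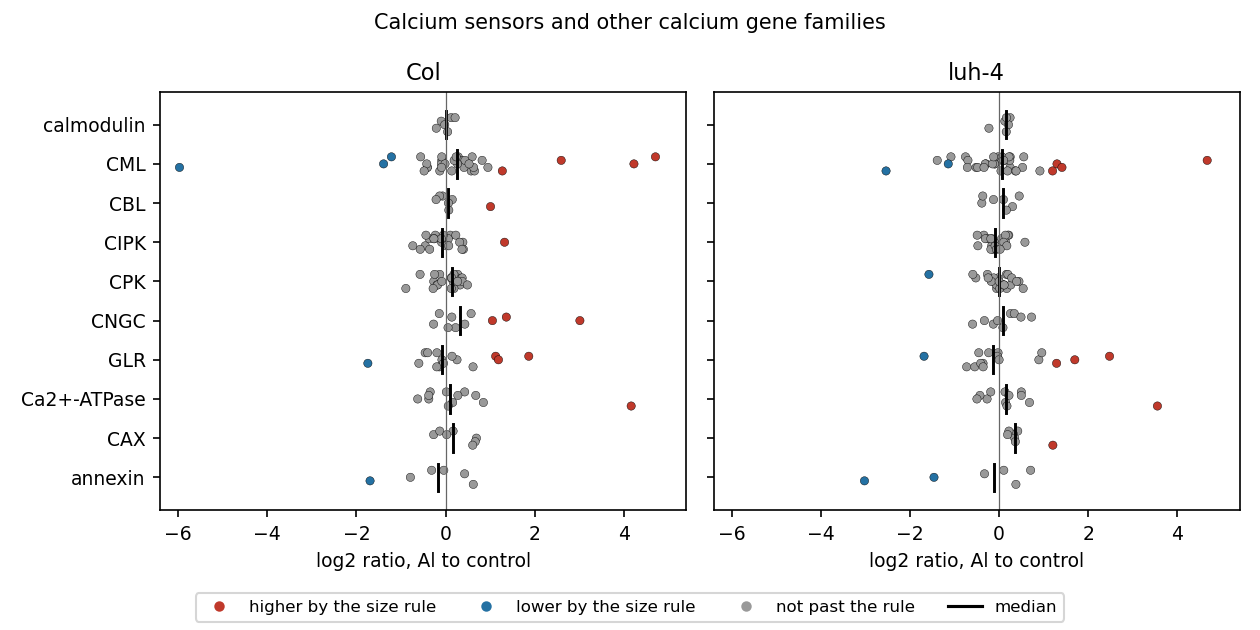
Log2 ratio of Al to control (horizontal axis) for measured genes of 3 sensor classes and 7 other calcium gene families, in Col (left) and luh-4 (right), with 1 point per gene, black bars at medians, red for genes past the size rule upward and blue downward. CML47 (4.71 and 4.67) and ACA13 (4.16 and 3.55) stand apart in both panels, while the calmodulins lie between -0.23 and 0.25.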

How the data were processed

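Polyadenylated RNA from roots was sequenced in 4 libraries. Per the file headers, each deposited table gives for every transcript a coding length, a count of reads, the RPKM that the authors computed from both and the library total, and a coverage in percent of the coding length. The submitters' processing notes name the build TAIR10, and which aligner and counter were used is not given in the sources used here. The counts sum to 13697345 reads without and 13819365 with Al in Col, and to 13735435 and 13450338 in luh-4. Unlisted transcripts were taken as 0 reads.

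Reads and RPKM were summed per locus. In the 7 members with several listed transcripts, reads covered at most 72.2% of the coding length, so their levels are less certain. Intervals are exact conditional binomial (Clopper-Pearson) intervals on reads, and for the difference between responses normal intervals on log reads with 0.5 added. Reads made by PCR are not independent molecules: intervals, and the limit of 3 reads, cover counting error only. All comparisons were computed over all loci, and medians and percents of all loci stand beside those of the members. The additive fit used edgeR 4.0.16 in R 4.3.3 with TMM factors and its filter on low counts. DESeq2 1.42.0 was an alternative. TCH3 (CML12), CML38, CBL4 and CBL5 are not among the members selected by description, so no level is given for them. Whether they had reads was not tested.

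Symbols came from a RefSeq gene table of build TAIR10.1, in which all 63 loci matched. CML numbers follow the deposited descriptions, and other numberings exist. AT3G29000 and AT2G15680 are called by locus, since the number of the first is the RefSeq symbol of the second. Upstream windows were read from TAIR10.1 with its own annotation. The deposited coding length equalled that of TAIR10.1 for 96.6% of 23615 transcripts found there. Strand was not stated, and 11 of 63 members are at least 80% identical in coding sequence to another member, so such copies are uncertain.

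Named are members past the size rule in a comparison of 2 libraries with an RPKM of at least 5 there, the 8 of highest mean RPKM, all calmodulins and CBLs, and TCH2 (CML24), TCH3, CML37, CML38, CML39, CML41 and CML42. From each other list, up to 3 genes past the rule with an RPKM of at least 5 are named per comparison. Others are named where a count of 5 or fewer or a test result includes them, and were chosen after their values were seen. The members and lists were chosen with earlier results of these data known.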

Additional observations from a re-analysis of the deposited data

Results flagged for a closer look

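CML42 and CML13 had Al ratios whose counting intervals excluded 0 in opposite directions in the 2 genotypes, although neither passed the size rule. CML42 (AT4G20780), known for trichome branching and as a negative regulator of herbivore defence, had 592 reads in Col control and 683 with Al, and 751 in luh-4 control and 582 with Al. Its Al ratio was 0.19 (0.03 to 0.35) in the wild type and -0.34 (-0.50 to -0.18) in luh-4, so luh-4 minus Col was -0.53 (-0.75 to -0.31). CML13 (AT1G12310), the most abundant of the 63 genes, had 3197, 3044, 2569 and 2750 reads, with ratios of -0.08 (-0.16 to -0.01) and 0.13 (0.05 to 0.21) and a difference of 0.21 (0.11 to 0.32). With 1 library per group the difference was not tested against variation between plants for either gene, and intervals this narrow come from high read counts. The share of all loci with such opposite intervals was not computed, so the count of 2 is not a result about these genes.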

How the results depend on the processing

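Of 1582 values of named members recomputed under alternatives, 1559 stayed on the same side of the size rule, 18 no longer passed it and 5 newly passed it. Of the values past the rule as reported, 0 reversed. For values short of the rule the sign was not compared. Most of the 1582 were short of the rule as reported and could not stop passing, so 18 of 1582 is no measure of stability. A value whose gene was no longer measured under an alternative was left out of these counts. At an RPKM minimum of 5 this left out CML37 in luh-4 against Col without Al, and CML3 and CBP60A with Al. Of the 18, 9 came with a pseudocount of 1 RPKM, which by construction shrinks low genes. It left 4 genes higher and 3 lower with Al in Col (from 5 and 4, CBL7 and CML7 being lost), 3 with a downward difference (from 4, CML39 being lost), 1 gene lower with Al in luh-4 (from 2), 1 higher in luh-4 without Al (from 3), 1 higher and 1 lower with Al (from 2 each) and 0 with an upward difference (from 1). Without the counting interval, 4 genes were lower with Al in luh-4, 5 were higher in luh-4 without Al and 3 had an upward difference. With luh-4 Al set against Col control in place of its own control, 4 genes were lower. There were again 4 higher, with CML11 lost and AT3G29000 gained. Of the 2 genes higher in luh-4 with Al, 0 were left at an RPKM minimum of 5, 1 at 50% coverage, and 1 with the sensor classes alone. With those classes alone, an alternative chosen after seeing the data, the additive fit had 2 genes lower with Al (from 4). DESeq2 called 4 higher and 2 lower for Al (edgeR 8 and 4) and 0 lower for genotype (edgeR 1). The cause of the DESeq2 difference was not tested. Leaving out any library ends a comparison or leaves no residual degree of freedom. No paired analysis was possible because each group has 1 library and the labels carry no replicate numbers. Depth limits genes with few reads, such as CML3, CML47 and CBP60A.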
